A study of Coturnix japonica with 19 samples.

Results

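Gene expression in the pituitary gland was compared between 5 juvenile and 5 adult Japanese quail (Coturnix japonica) kept under short days of 8 h light (8L). The birds were taken by the age and photoperiod in their labels, and are 10 of the 19 birds sequenced. The juvenile 8L birds hatched in an incubator, had 5 days of long photoperiod and then 5 days of 8L, and were killed on posthatch day 10. By the study's table of birds, juveniles 1, 3, 4 and 5 were males and juvenile 2 was a female. The adult 8L birds were males obtained at 5 weeks of age, given 2 weeks of long photoperiod and then 8 weeks of 8L. The other 9 birds, 4 juveniles given 5 days under 16 h light (16L) and 5 adults given 8 weeks of 16L after short days, entered only where the age difference was measured again under long days. Per the study's methods the stalk was cut and the gland, with its pars distalis, was taken from the sella turcica, the bony cavity that holds it. Age under 8L therefore came together with the length of the short-day exposure, the rearing and, for 1 bird, sex, and these cannot be told apart.

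The anterior pituitary holds several kinds of endocrine cell, which make growth hormone, prolactin, thyrotropin, the gonadotropins and the peptides cut from proopiomelanocortin. Cells of the gland still divide and mature after hatching, and growth hormone drives body growth in young birds. Short days hold the gonadotropin axis of adult quail at rest. A dissected gland also carries blood, vessels and sheath tissue, and in these bulk libraries fewer cells of a type and less RNA per cell cannot be told apart.

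Each bird gave 1 long-read cDNA library, and the values are estimated read counts summed over the transcripts of a gene symbol. The total was 408050, 1074139, 183695, 90599 and 684981 counts in juveniles 1 to 5 and 1969096, 128509, 1042268, 601285 and 1213465 counts in adults 1 to 5. Median totals were 408050 in juveniles and 1042268 in adults, and the ranges overlapped. On the log2 scale juvenile totals were lower by a mean of 1.05, which an exact two-sided permutation test over all assignments of birds to the ages did not separate (p = 0.27, smallest possible p = 0.00794). The number of gene symbols with a count was 8495, 13932, 9015, 5382 and 10741 in juveniles and 14903, 7569, 13479, 13146 and 14096 in adults (p = 0.159 by the same permutation test). A single count stood for 0.895 CPM, the depth-normalized unit used for every level here (TMM scaling), in juvenile 2 but 10.9 CPM in juvenile 4, and for 0.567 CPM in adult 1 but 7.22 CPM in adult 2. Low values in juvenile 4 and adult 2 are thus a few counts each. The TMM factor was 0.598 in juvenile 1 and 0.589 in juvenile 5, against 0.944 to 1.46 in the other libraries. Every CPM of juveniles 1 and 5 is therefore scaled up relative to the other birds. LOC symbols, gene models without a name, held 31.8 to 63.2% of the counts in juveniles and 22.5 to 41.9% in adults. Of these, 33 symbols in 2 families, whose counts lay within 5% of 1 shared member in every library, held 15.9 to 57.9% of juvenile counts and 13.4 to 34.7% of adult counts. HINTW lies on the W chromosome, which only female birds carry. It had 307 counts in juvenile 2 and 0 in the other 9 libraries, a pattern that matches the listed sexes.

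**Figure D1:**
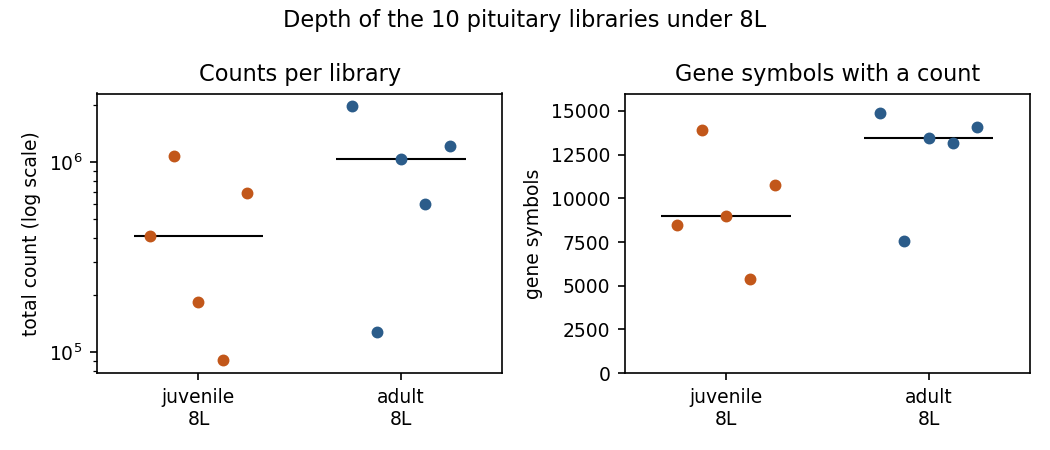
Total count (left, log scale) and number of gene symbols with a count (right) in each library, juvenile 8L birds left and adult 8L birds right. Points are birds, replicates 1 to 5 from left to right, and lines are medians; the medians of the totals are 408050 in juveniles and 1042268 in adults.

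Juveniles 1 and 5 stood apart from the other 3 juveniles before any test. Transcripts of 18 osteoblast and osteocyte markers, the cells that lay down and maintain bone, summed to 18347, 126, 450.1, 1398 and 14752 CPM in juveniles 1 to 5 and 56.7, 57.8, 39.3, 47.4 and 51.6 CPM in adults 1 to 5. All 18 had a count in juveniles and 6 were at 0 in every adult. All 5 juveniles lay above all 5 adults, and juveniles 1 and 5 lay far above the other 3. IBSP and DMP1, bone matrix proteins, had 436 and 87 counts over the juveniles and 0 over the adults, whereas SP7, an osteoblast transcription factor, had 1 count, in juvenile 5. The 28 connective tissue markers summed to 9623, 637, 1287, 2293 and 9049 CPM in juveniles and 260.0 to 447 CPM in adults. The 17 cartilage markers summed to 9054, 538, 837, 229 and 3481 CPM in juveniles and 472 to 1210.0 CPM in adults, so that only juveniles 1 and 5 exceeded the adults. The pituitary hormones had the reverse order, with juveniles 1 and 5 below every adult, at a sum of 2848, 50868, 32245, 40351 and 7589 CPM in juveniles 1 to 5 and 13753 to 30913 CPM in adults. The 23 secretory granule genes followed the hormones at 1285, 11155, 8731, 7033 and 2435 CPM in juveniles and 6832 to 12146 CPM in adults. For this reason the called genes, and some of the other genes and lists, are given with and without juveniles 1 and 5. These birds were picked by the sums above, so changes in members of those lists without them were partly built in. P-values here measure the spread between birds. The part of bone, cartilage and connective tissue RNA in the results was not tested.

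**Figure D2:**
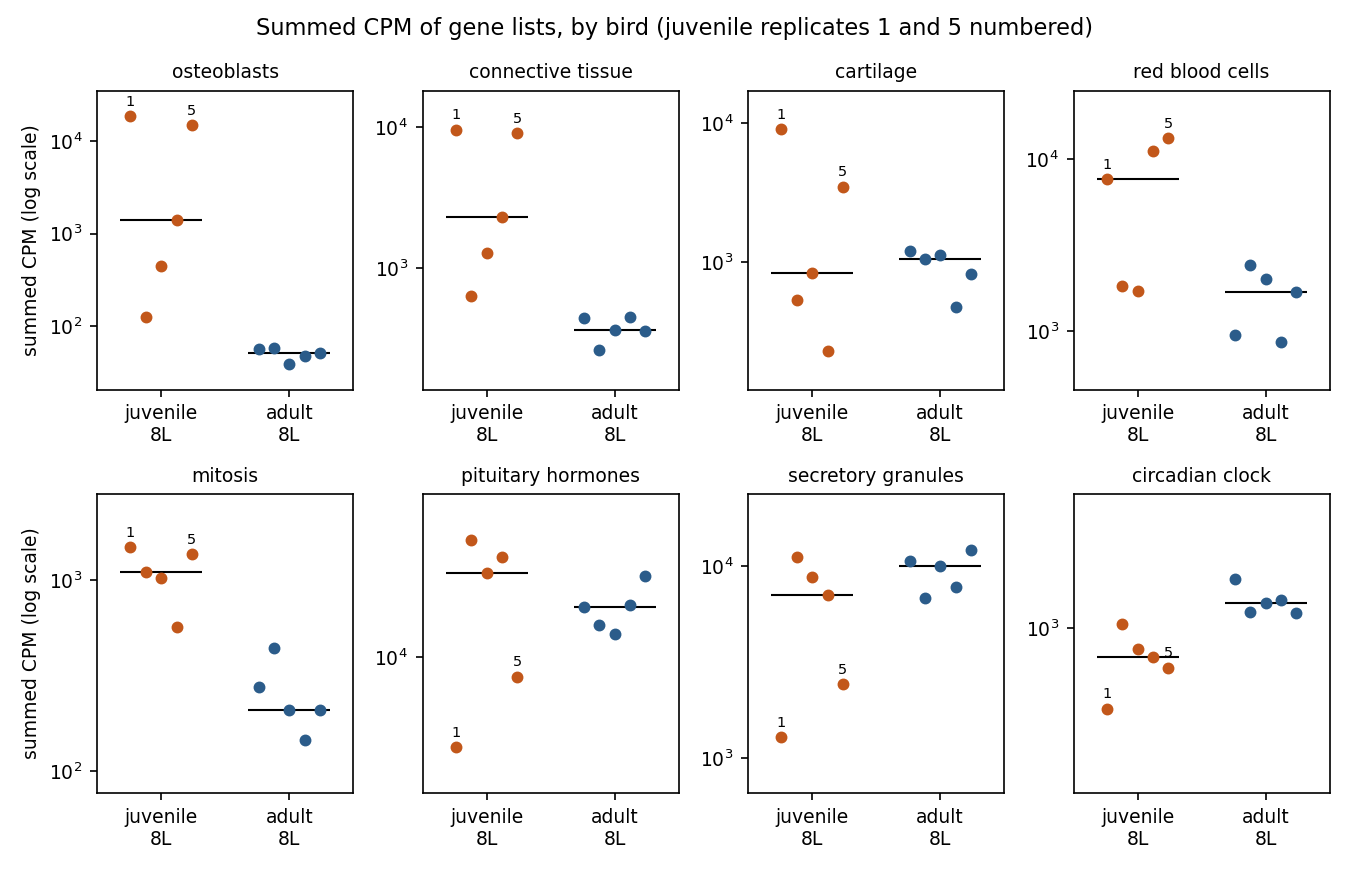
Summed CPM (log scale) of 8 gene lists in each bird, juvenile 8L left and adult 8L right; points are replicates 1 to 5 from left to right and lines are medians. Juveniles 1 and 5 are numbered: they are the 2 highest for osteoblasts at 18347 and 14752 CPM and the 2 lowest for pituitary hormones at 2848 and 7589 CPM.

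Across genes, the comparison asked which transcripts differ with age when both ages have short days. edgeR tested 5106 genes that passed the filter on low counts. A gene at or near 0 in 1 age could pass only through the other age, which fixed its sign in advance. At an adjusted p under 0.05, 8 genes (0.157%) differed, and 6 of them were higher in juveniles (0.118%) and 2 lower (0.0392%). The 6 higher genes were PBK and SMC2, which act in cell division, the fibrillar collagens COL1A1, COL1A2 and COL3A1, and the hemoglobin chain HBE1. The 2 lower genes were IL1RAPL2 and PLEKHG5. At an unadjusted p under 0.01, 107 genes (2.1%) passed, with 51.1 expected from a flat distribution of p, with 60 higher in juveniles (1.18%) and 47 lower (0.92%). The juvenile and adult birds did not overlap in CPM for 169 tested genes (3.31%), 46 higher in juveniles (0.901%) and 123 lower (2.41%). Juvenile libraries were shallower at the median, and the part of depth in these shares was not tested. The median log2 fold change of all tested genes was -0.09, and 44.6% of them were above 0. The 8 calls depended on the libraries: leaving out adult 3, 4 or 5 left 0 genes past the adjusted threshold in edgeR (296, 333 and 335 genes at an unadjusted p under 0.05), and leaving out juvenile 2 gave 49. DESeq2 called 107 genes, 59 higher and 48 lower, all 8 among them, and edgeR with RLE scaling called 4, all higher.

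**Figure D3:**
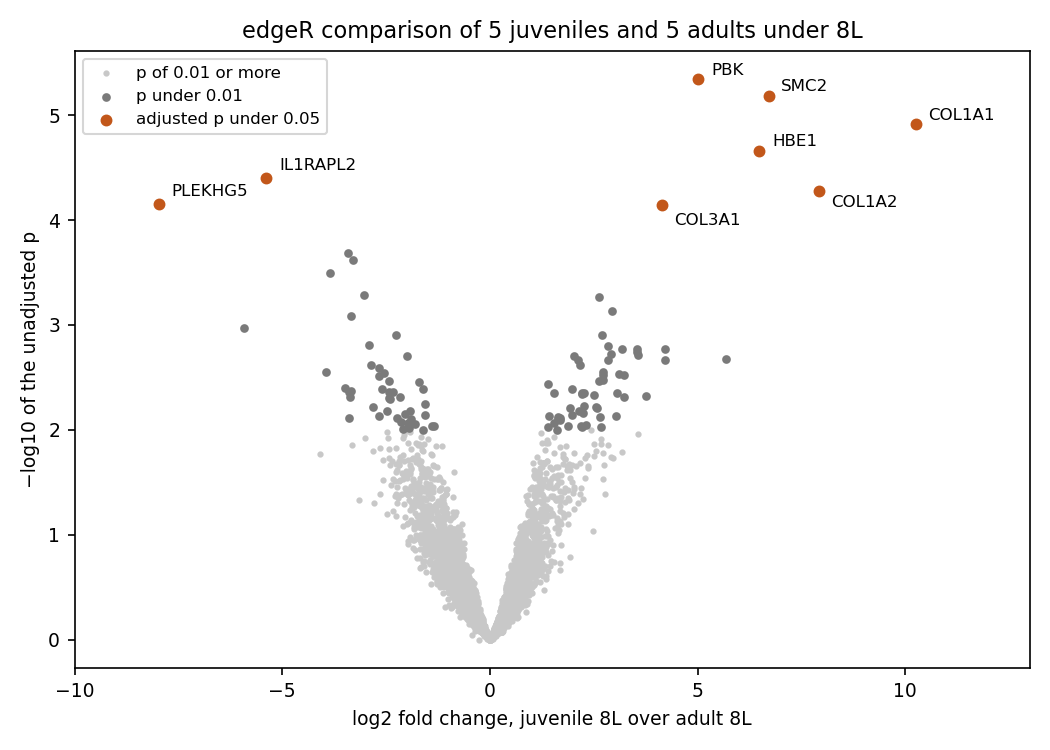
Log2 fold change (juvenile 8L over adult 8L) against −log10 of the unadjusted p for 5106 genes in 5 juveniles and 5 adults; right is higher in juveniles. Orange points are the 8 genes at an adjusted p under 0.05, 6 on the right and 2 on the left, dark grey the other genes at a p under 0.01.

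PBK and SMC2, which act in cell division, rose in juveniles with no overlap between birds. PBK, a mitotic kinase, had 38.5, 48.3, 31.8, 65.5 and 70.03 CPM in juveniles 1 to 5 and 3.40, 0, 0.894, 0 and 0.738 CPM in adults 1 to 5. The groups did not overlap, with the lowest juvenile at 31.8 CPM and the highest adult at 3.40 CPM (log2 fold change 5.02, SE 0.68, adjusted p = 0.0166). SMC2, a condensin subunit that compacts mitotic chromosomes, had 128, 40.3, 106, 164 and 104 CPM in juveniles 1 to 5 and 2.83, 0, 0, 0 and 0 CPM in adults 1 to 5. It was detected in every juvenile and in 1 adult, at 150 counts over the juveniles and 5 over the adults (log2 fold change 6.72, SE 0.94, adjusted p = 0.0166). Both remained past the threshold without juveniles 1 and 5 (PBK 4.85, adjusted p = 0.0288; SMC2 6.47, adjusted p = 0.0288).

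Of 45 mitosis genes with a symbol in the file, 5 passed the filter, all 5 had a log2 fold change above 0 (median 2.01, against -0.09 for all genes) and 2 were called, both higher, against 0.118% of all genes. When juveniles 1 and 5 were left out, 7 of 8 were above 0 (median 2.74) and 2 were called. PBK and SMC2, at or near 0 in adults, passed the filter through the juveniles, so their sign was fixed in advance. CENPF, a kinetochore protein, averaged 208 ± 133 CPM in juveniles and 49.96 ± 34.2 CPM in adults (log2 fold change 2.01, adjusted p = 0.548), and juvenile 4 and adult 2, the shallowest library of each age, had no count. Means are given ± SD over the 5 birds of an age. KIF11, a spindle motor, averaged 49.4 ± 25.5 CPM in juveniles and 27.9 ± 12.4 CPM in adults (log2 fold change 0.85, adjusted p = 0.726). The summed level of the 45 genes did not overlap between the ages, at 1482, 1099, 1027, 568 and 1362 CPM in juveniles 1 to 5 and 276, 441, 208, 146 and 208 CPM in adults 1 to 5. The other 40 were too low to test. TOP2A, the topoisomerase of mitotic chromosomes, had 10, 30, 10, 2 and 4 counts in juveniles and 8, 0, 1, 0 and 2 in adults, and CDK1, the kinase that starts mitosis, had 3, 45, 6, 0 and 9 counts in juveniles and 0, 0, 3, 1 and 6 in adults. MKI67, the Ki-67 protein of dividing cells, had 55, 125, 0, 0 and 71 counts in juveniles and 0, 22, 0, 1 and 0 in adults, so that juveniles 1, 2 and 5 and adult 2 held nearly all of them. Of 50 DNA replication genes in the file only 6 were tested, and the others were too low. The 50 genes summed to 835, 789.5, 482, 349 and 508 CPM in juveniles 1 to 5 and 267 to 413 CPM in adults. Juveniles 1, 2, 3 and 5 were above every adult. Of the 6 tested genes 3 were above 0, with a median log2 fold change of -0.03 and 0 called. When juveniles 1 and 5 were left out, 8 of 14 were above 0 with a median of 0.43, and RRM2 was called. HELLS, a chromatin remodeller of replicating cells, averaged 68.4 ± 46.6 CPM in juveniles and 21.4 ± 14.3 CPM in adults (log2 fold change 1.59, adjusted p = 0.548). Of 3 tested cell cycle inhibitors 1 did not overlap between the ages, against 0.901% of all genes that were higher without overlap. It was CCNG1, a p53 target, at 51.4, 43.9, 42.4, 87.4 and 51.9 CPM in juveniles and 32.3, 28.9, 21.5, 22.5 and 19.2 CPM in adults (log2 fold change 1.13, adjusted p = 0.526). The list had 2 of 3 above 0 (median 1.13), and 5 of 5 (median 0.35) when juveniles 1 and 5 were left out, with 0 called in both fits.

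**Figure D4:**
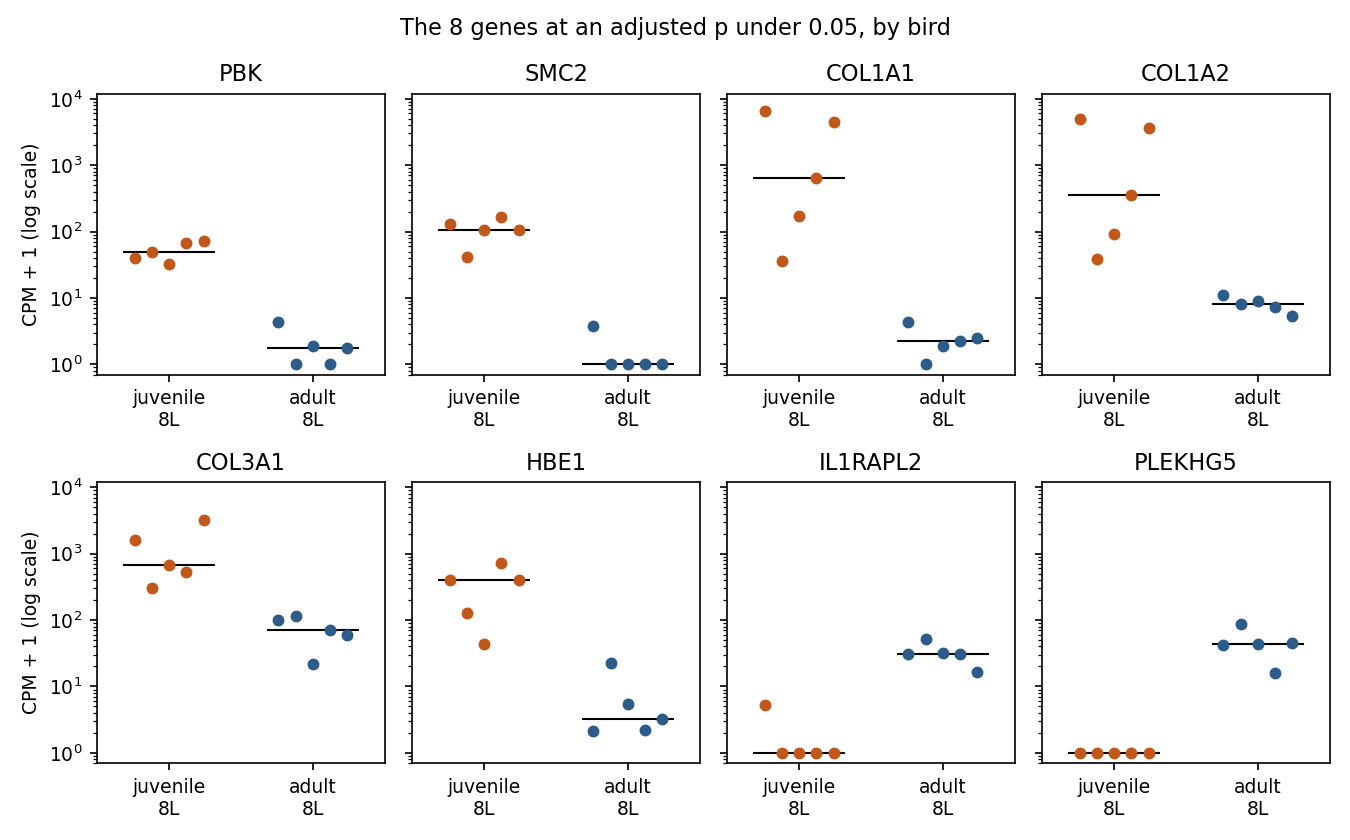
CPM + 1 (log scale) of the 8 genes at an adjusted p under 0.05 in each bird, juvenile 8L left and adult 8L right; points are replicates 1 to 5 from left to right and lines are medians. PBK spans 31.8 to 70.0 CPM among juveniles, whereas COL1A1 runs from 34.9 to 6599.6 CPM among them.

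Type I and type III collagen rose in juveniles, by unequal amounts in the 5 birds. COL1A1, a chain of type I collagen, had 6599.6, 34.9, 169, 644 and 4466 CPM in juveniles 1 to 5 and 3.40, 0, 0.894, 1.25 and 1.48 CPM in adults 1 to 5. Every juvenile was above every adult, but the juveniles ran from 34.9 to 6599.6 CPM (log2 fold change 10.26, SE 1.52, adjusted p = 0.0207). COL1A2, the other chain, had 4878, 37.6, 90.01, 360.4 and 3608 CPM in juveniles 1 to 5 and 10.2, 7.22, 8.05, 6.24 and 4.43 CPM in adults 1 to 5 (log2 fold change 7.91, SE 1.35, adjusted p = 0.0447). COL3A1, the type III collagen of loose connective tissue and vessels, had 1606, 305, 672, 535 and 3211 CPM in juveniles 1 to 5 and 101, 116, 20.6, 69.9 and 59.02 CPM in adults 1 to 5 (log2 fold change 4.14, SE 0.73, adjusted p = 0.0454). Without juveniles 1 and 5 the log2 fold change was 6.96 for COL1A1 (adjusted p = 0.0288), 4.20 for COL1A2 (adjusted p = 0.051) and 2.71 for COL3A1 (adjusted p = 0.194), so that only COL1A1 stayed past the threshold. Those birds were set apart partly by high sums that include these genes, so smaller differences without them were partly built in. That fit also had fewer juveniles. Juveniles 1 and 5 also held most counts of the bone genes below the filter. SPP1, osteopontin, had 966, 14, 12, 10 and 1406 counts in juveniles and 2, 0, 1, 0 and 0 in adults, a ratio of juvenile to adult level of 2061 (95% exact counting interval 704 to 10001). Such intervals cover counting error only, and PCR reads are not independent molecules. IBSP had 162, 0, 3, 6 and 265 counts in juveniles and 0 in adults, at least 373-fold higher with 3 counts over the group as the floor.

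All 4 tested osteoblast markers were above 0 and at an unadjusted p under 0.01, against 2.1% of all genes, and 2 of them were the called COL1A1 and COL1A2. Their median was 5.48, and without juveniles 1 and 5 it was 4.20 over 5 tested markers, of which 4 were above 0. COL1A1 and COL1A2, low in adults, passed the filter through the juveniles, so their sign in these counts was fixed in advance. RUNX2, a master regulator of osteoblasts, had 364, 13.4, 10.6, 21.8 and 319 CPM in juveniles 1 to 5 and 23.8, 14.4, 12.52, 23.7 and 13.3 CPM in adults 1 to 5 (log2 fold change 3.04, adjusted p = 0.45). Only juveniles 1 and 5 exceeded the adults, and without them the log2 fold change was -0.40. SPARC, a collagen-binding matrix protein, had 124, 10.7, 21.2, 43.7 and 161 CPM in juveniles 1 to 5 and 13.6, 7.22, 8.05, 9.98 and 21.4 CPM in adults 1 to 5 (log2 fold change 2.51, adjusted p = 0.382), and its log2 fold change without juveniles 1 and 5 was 0.61 (adjusted p = 0.9996). Of 28 connective tissue genes 9 were tested, and all 9 were above 0 (median 3.55), against 44.6% of all genes. Of the 9, 5 were higher at a p under 0.01, against 1.18% of all genes. COL3A1 was called, against 0.118% of all genes that were called higher. COL5A1, a fibrillar collagen, averaged 508 ± 569 CPM in juveniles and 44.7 ± 17.1 CPM in adults (log2 fold change 3.55, adjusted p = 0.345). LUM, a proteoglycan of collagen fibrils, averaged 240.3 ± 237 CPM in juveniles and 21.4 ± 12.6 CPM in adults (log2 fold change 3.54, adjusted p = 0.345). POSTN, periostin, had 1400.4, 62.7, 79.4, 0 and 921 CPM in juveniles 1 to 5 and 13.6, 0, 0, 28.7 and 0.738 CPM in adults 1 to 5 (log2 fold change 5.69, adjusted p = 0.345), and FN1, fibronectin, averaged 243 ± 228 CPM in juveniles and 11.8 ± 9.23 CPM in adults (log2 fold change 4.21, adjusted p = 0.345). POSTN and FN1, low in most adults, passed the filter mainly through the juveniles, so their sign was largely fixed in advance. In the fit without juveniles 1 and 5, 11 of 13 connective tissue genes were above 0, with a median of 0.94 and 0 called. There the log2 fold change was 0.94 for COL5A1, 2.36 for POSTN and 3.03 for FN1, with adjusted p from 0.828 to 0.99. RUNX2, SPARC and the connective tissue genes enter the sums that set juveniles 1 and 5 apart. Their smaller values without those birds were thus partly built in. TNC, tenascin C, had 204, 0, 0, 0 and 246 counts in juveniles and 0 in adults, all from juveniles 1 and 5.

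No cartilage, basement membrane or osteoclast gene passed the threshold in the fit with the filter. Only 3 of 17 cartilage genes and 2 of 12 osteoclast genes in the file were tested. COL11A1, a cartilage collagen, had 3054, 40.3, 58.2, 153 and 1390.2 CPM in juveniles 1 to 5 and 40.8, 72.2, 45.6, 56.2 and 42.05 CPM in adults 1 to 5 (log2 fold change 4.22, adjusted p = 0.345), and only juveniles 1, 4 and 5 exceeded every adult. Its log2 fold change without juveniles 1 and 5 was 0.51 (adjusted p = 0.9996). SOX6, a transcription factor of chondrocytes and of other lineages, averaged 353 ± 255 CPM in juveniles and 621 ± 202 CPM in adults (log2 fold change -0.80, adjusted p = 0.768). ACAN, the proteoglycan aggrecan, had 210, 0, 3, 0 and 34 counts in juveniles and 0, 1, 0, 0 and 0 in adults, and HAPLN1, the link protein that binds aggrecan to hyaluronan, had 335, 12, 12, 1 and 217 and 16, 0, 13, 0 and 20. The high counts of both were in juveniles 1 and 5. COL4A1, a chain of the type IV collagen found in all basement membranes, had 244, 102, 37.1, 65.5 and 195 CPM in juveniles 1 to 5 and 33.4, 0, 29.5, 11.2 and 8.85 CPM in adults 1 to 5, with no overlap (log2 fold change 2.84, adjusted p = 0.345). COL4A3, a chain of more specialised basement membranes, averaged 4.24 ± 9.47 CPM in juveniles and 29.7 ± 18.4 CPM in adults (log2 fold change -3.39, adjusted p = 0.45), the opposite sign. COL4A3 was at 0 in most juveniles and passed the filter mainly through the adults, so its sign was largely fixed in advance. The log2 fold change without juveniles 1 and 5 was 1.85 for COL4A1 and -2.56 for COL4A3. Of the 8 basement membrane genes tested, 5 were above 0 and 0 were called. TNFRSF11B, the decoy receptor that restrains osteoclasts, the cells that resorb bone, had 17.1, 52.8, 10.6, 0 and 38.9 CPM in juveniles 1 to 5 and 63.5, 57.8, 75.997, 78.6 and 90.7 CPM in adults 1 to 5, with no overlap (log2 fold change -1.45, adjusted p = 0.548). CA2, a carbonic anhydrase of osteoclasts and red cells, averaged 125 ± 107 CPM in juveniles and 38.99 ± 22.9 CPM in adults (log2 fold change 1.76, adjusted p = 0.518), with a log2 fold change of 0.58 without juveniles 1 and 5. The 12 osteoclast genes summed to 758, 107, 148, 175 and 905 CPM in juveniles 1 to 5 and 126 to 152 CPM in adults. CTSK and ACP5, osteoclast genes below the filter, were chosen after their values were seen. In edgeR with no filter they were higher in juveniles by 6.52 and 5.76 on the log2 scale (adjusted p = 0.0137 and 0.0147). MMP9 and ITGB3 also passed there, whereas ATP6V0D2, TNFSF11, NFATC1, SIGLEC15, DCSTAMP and TNFRSF11A did not (adjusted p = 0.0761 to 0.961). Of the cartilage genes, COL10A1, ACAN, COL2A1, COL9A1 and HAPLN1 passed there (adjusted p = 0.0136 to 0.0184). COL9A2, COL9A3, MATN1, MATN3, COMP, CHAD, SNORC, EPYC and SOX9 did not.

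Of the red cell genes, HBE1 rose in juveniles. This hemoglobin chain, named for the embryonic epsilon chain of the beta family, had 407, 125, 42.4, 732 and 399 CPM in juveniles 1 to 5 and 1.13, 21.7, 4.47, 1.25 and 2.21 CPM in adults 1 to 5, with no overlap (log2 fold change 6.49, SE 1.02, adjusted p = 0.0278). It stayed past the threshold without juveniles 1 and 5 (6.13, adjusted p = 0.0452). All 5 tested genes of the list were above 0 (median 2.56) and 4 were at a p under 0.01, against 2.1% of all genes. In the fit without juveniles 1 and 5 all 6 tested genes were above 0, the median was 1.17 and 2 were at a p under 0.01. HBE1, low in most adults, passed the filter through the juveniles, so its sign was fixed in advance. HBAD, the minor alpha chain of birds, had 1991, 448, 609, 3287 and 4422 CPM in juveniles 1 to 5 and 221, 477, 502, 139.8 and 323 CPM in adults 1 to 5 (log2 fold change 2.70, adjusted p = 0.345), and HBA1, an alpha chain, averaged 2543 ± 1794 CPM in juveniles and 669 ± 269 CPM in adults (log2 fold change 1.93, adjusted p = 0.433). SLC4A1, the anion exchanger of the red cell membrane, averaged 119 ± 139 CPM in juveniles and 19.5 ± 7.63 CPM in adults (log2 fold change 2.56, adjusted p = 0.432). Without juveniles 1 and 5 the log2 fold change was 1.94 for HBAD, 1.30 for HBA1 and 0.82 for SLC4A1, with adjusted p from 0.635 to 0.999. The red cell genes summed to 7602, 1821, 1710.2, 11149.8 and 13131 CPM in juveniles 1 to 5 and 939, 2398, 2007, 864 and 1675 CPM in adults 1 to 5. Juveniles 1, 4 and 5 were above every adult, while juveniles 2 and 3 lay within the adult range. How reads were divided among hemoglobin genes of similar sequence was not tested. The part of retained blood in these values was not tested.

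Both called genes that fell in juveniles were near or at 0 there. PLEKHG5 had 0 counts in all 5 juveniles and 40.8, 86.7, 42.9, 14.98 and 44.3 CPM in adults (log2 fold change -7.98, SE 1.18, adjusted p = 0.0454). With 204 counts over the adults, the level was at least 26.5-fold lower in juveniles, with 3 counts over the group as the floor. IL1RAPL2, a receptor-like protein of the interleukin-1 family, had 1 count in juvenile 1 and 0 in the other 4, against 30.04, 50.6, 31.3, 29.95 and 15.5 CPM in adults (log2 fold change -5.38, SE 0.90, adjusted p = 0.0406). Its ratio of adult to juvenile level was 54.5, with a 95% counting interval of 9.63 to 2169. Both missed the threshold without juveniles 1 and 5 (PLEKHG5 -8.16, adjusted p = 0.123; IL1RAPL2 -7.63, adjusted p = 0.123). MYOCD, myocardin, and MUC13, a mucin, were further examples below the filter, chosen after their values were seen. MYOCD had 0, 1, 0, 0 and 0 counts in juveniles and 111, 0, 142, 84 and 86 in adults, and MUC13 had 0, 0, 1, 0 and 0 and 180, 0, 84, 24 and 132. Each was also at 0 in adult 2, the shallowest adult library.

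None of the 5 tested pituitary hormones passed the adjusted threshold over all 10 birds, and GH was the only one with a log2 fold change above 0. GH, growth hormone, had 2501, 39449.6, 19628, 22539.8 and 3086 CPM in juveniles 1 to 5 and 1415, 1466, 4221, 1626 and 4406 CPM in adults 1 to 5 (log2 fold change 2.73, SE 0.75, adjusted p = 0.373). Juveniles 2, 3 and 4 were all above every adult, whereas juveniles 1 and 5 lay inside the adult range. Without juveniles 1 and 5 GH was higher by 3.31 on the log2 scale and passed the threshold (adjusted p = 0.0288). Those 2 birds were set apart partly by their low hormone sums, which include GH. That adjusted p is therefore not independent of the GH values and is not separate support. LOC107055278, a symbol with no gene name here, had a like pattern, with 4209.8, 39139.9, 23498, 24789 and 3763 CPM in juveniles 1 to 5 and 1934, 2975, 4411, 698 and 3286 CPM in adults 1 to 5 (log2 fold change 2.84, adjusted p = 0.345). Whether reads were shared between the 2 symbols was not tested. CGA, the subunit common to the glycoprotein hormones, had 116, 5914, 4061, 5635 and 1043 CPM in juveniles 1 to 5 and 7371, 9561, 4675, 9690.0 and 9249.5 CPM in adults 1 to 5 (log2 fold change -1.27, SE 0.74, adjusted p = 0.704). POMC, the precursor of corticotropin, averaged 2999 ± 2140.0 CPM in juveniles and 6193 ± 3682 CPM in adults (log2 fold change -1.05, adjusted p = 0.778). PRL, prolactin, averaged 2904 ± 2455 CPM in juveniles and 3169 ± 1864 CPM in adults (log2 fold change -0.13, adjusted p = 0.992), and TSHB, the thyrotropin beta subunit, averaged 82.2 ± 72.3 CPM in juveniles and 82.3 ± 54.4 CPM in adults (log2 fold change -0.03, adjusted p = 0.997). The sign of PRL and of TSHB changed with the scaling, as it did without juvenile 1. FSHB, the beta subunit of follicle-stimulating hormone, was below the filter with 0, 0, 0, 0 and 1 counts in juveniles and 2, 5, 2, 21 and 9 in adults, a ratio of adult to juvenile level of 15.2 (95% counting interval 2.57 to 615). LHB was not analysed here. In juveniles 2, 3 and 4 the 6 hormone genes summed to 32245 to 50868 CPM, above the adult range of 13753 to 30913 CPM, and most of that sum was GH. These birds are the ones left once the 2 juveniles of lowest sum were set aside.

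Transcription factors of the pituitary lineages had a median log2 fold change of -0.71 over 14 tested genes, of which 6 were above 0 and 0 were called (-0.74 over 15 genes without juveniles 1 and 5). PITX1, a factor of the early gland and of most of its cell types, had 0, 57.3, 58.2, 98.3 and 18.2 CPM in juveniles 1 to 5 and 228, 108, 208, 125 and 146 CPM in adults 1 to 5 (log2 fold change -1.89, adjusted p = 0.52). LHX3, needed for most anterior lineages, had 0, 35.8, 31.8, 10.9 and 10.4 CPM in juveniles 1 to 5 and 44.8, 36.1, 58.1, 53.7 and 75.2 CPM in adults 1 to 5 (log2 fold change -1.50, adjusted p = 0.557). POU1F1, the factor of growth hormone, prolactin and thyrotropin cells, had 29.98, 498, 434, 131 and 44.1 CPM in juveniles 1 to 5 and 519, 664, 575, 775 and 525 CPM in adults 1 to 5 (log2 fold change -1.41, adjusted p = 0.613). These 3 genes did not overlap, against 2.41% of all genes that were lower without overlap. NR5A1, a gonadotroph factor, averaged 7.77 ± 10.98 CPM in juveniles and 38.7 ± 17.5 CPM in adults (log2 fold change -1.79, adjusted p = 0.548). POU1F1 was lowest in juveniles 1 and 5, and its log2 fold change without them was -0.81. Of 12 tested genes of the secretory granule, 4 were above 0 (median -0.39). SCG2, secretogranin II, had 85.7, 667, 529, 273 and 182 CPM in juveniles 1 to 5 and 1042, 686, 987, 885 and 1007 CPM in adults 1 to 5, with no overlap (log2 fold change -1.40, adjusted p = 0.518). CHGA, chromogranin A, had 552, 3982, 4008, 2348 and 672 CPM in juveniles 1 to 5 and 5787, 2874, 5288, 3166 and 6036 CPM in adults 1 to 5 (log2 fold change -1.002, adjusted p = 0.702). Both were lowest in juveniles 1 and 5, and without these birds 9 of 17 granule genes were above 0, with a median of 0.02. ELAVL4, an RNA-binding protein of neurons and endocrine cells, averaged 303 ± 216 CPM in juveniles and 728 ± 191 CPM in adults (log2 fold change -1.25, adjusted p = 0.529).

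Receptors and photoperiod genes were mostly too low to test. Of 19 receptors of hypothalamic signals in the file, 3 were tested and 0 were called. OPN5, a deep-brain photoreceptor of birds, had 0, 5, 5, 0 and 0 counts in juveniles and 14, 2, 4, 6 and 8 in adults. NTS, neurotensin, had 0 counts in juveniles and 2, 1, 4, 2 and 8 in adults, and 0 of 13 neuropeptides in the file could be tested. Of 13 genes of thyroid hormone and photoperiod signalling, 3 were tested and 0 were called. MEF2A averaged 567 ± 394 CPM in juveniles and 360.1 ± 133 CPM in adults (log2 fold change 0.66, adjusted p = 0.871) and MEF2D averaged 286 ± 255 CPM in juveniles and 113 ± 75.99 CPM in adults (log2 fold change 1.29, adjusted p = 0.796), both being transcription factors first known from muscle. MEF2A had no count in juvenile 4, and MEF2D none in juvenile 3 and adult 2.

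The summed level of the circadian clock genes lay lower in every juvenile than in any adult, and no single gene passed the threshold. The 20 clock genes summed to 381, 1054, 778, 709.8 and 622 CPM in juveniles 1 to 5 and 1814, 1213, 1357, 1402 and 1205 CPM in adults 1 to 5, with no overlap. Of 31 lists with a sum, this was the only one with all juveniles below all adults, while 5 had all juveniles above, namely mitosis, cell cycle inhibitors, osteoblasts, connective tissue, and endothelial and mural cells. Of 10 tested clock genes, 2 were above 0 and the median was -0.83. The ages did not overlap for 2 of the 10, against 2.41% of all genes that were lower without overlap. PER3, a period gene, had 0, 62.7, 63.5, 21.8 and 0 CPM in juveniles 1 to 5 and 157, 296, 138, 92.4 and 73.03 CPM in adults 1 to 5, with no overlap (log2 fold change -2.29, adjusted p = 0.536). CLOCK, an activator of the period genes, had 72.8, 224, 0, 186 and 132 CPM in juveniles 1 to 5 and 270.3, 368, 325, 449 and 308 CPM in adults 1 to 5, with no overlap (log2 fold change -1.48, adjusted p = 0.626). ARNTL, the partner of CLOCK, was counted in juvenile 2 alone among the juveniles, at 19.7 CPM, and in adults at 24.4, 0, 30.4, 26.2 and 17.7 CPM (log2 fold change -1.59, adjusted p = 0.682). PER2 averaged 312 ± 139.8 CPM in juveniles and 553 ± 263 CPM in adults (log2 fold change -0.83, adjusted p = 0.688). In the fit without juveniles 1 and 5 the median over 13 genes was -0.60 and 2 were above 0. The time of day at which the birds were killed is not given in the sources used here, and its part was not tested.

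No growth factor, signalling or steroid receptor gene passed the threshold, and few had ages that did not overlap. These were 2 of 7 tested growth factor genes (against 0.901% of all genes that were higher without overlap), 1 of 6 Wnt, Notch and hedgehog genes and 1 of 7 steroid receptor and cochaperone genes (against 2.41% that were lower). IGFBP2, which binds insulin-like growth factors in serum and tissues, had 42.8, 35.8, 26.5, 109 and 129.7 CPM in juveniles 1 to 5 and 17.002, 0, 13.4, 12.48 and 22.1 CPM in adults 1 to 5 (log2 fold change 2.22, SE 0.65, adjusted p = 0.382). IGFBP7, a related matrix protein, had 47.1, 22.4, 31.8, 98.3 and 77.8 CPM in juveniles 1 to 5 and 14.2, 21.7, 20.6, 12.48 and 17.7 CPM in adults 1 to 5 (log2 fold change 1.65, SE 0.53, adjusted p = 0.451). The ages did not overlap for either gene, and both were at an unadjusted p under 0.01, but neither passed the adjusted threshold. JAG2, a Notch ligand, had 0, 21.5, 31.8, 0 and 10.4 CPM in juveniles 1 to 5 and 96.3, 57.8, 66.2, 39.9 and 42.05 CPM in adults 1 to 5, with no overlap (log2 fold change -2.10, adjusted p = 0.514). NR3C2, the mineralocorticoid receptor, had 4.28, 48.3, 68.8, 10.9 and 64.8 CPM in juveniles 1 to 5 and 92.9, 116, 95.7, 99.8 and 91.5 CPM in adults 1 to 5, with no overlap (log2 fold change -1.27, adjusted p = 0.626). FKBP5, a cochaperone of steroid receptors induced by glucocorticoids, had 4.28, 554, 63.5, 87.4 and 189 CPM in juveniles 1 to 5 and 54.97, 28.9, 52.8, 59.9 and 48.7 CPM in adults 1 to 5 (log2 fold change 1.88, adjusted p = 0.548). Juvenile 2 was the highest of the 10 birds and juvenile 1 the lowest.

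Glial, immune and vessel markers held no called gene. MBP, the myelin basic protein of oligodendrocytes and Schwann cells, had 565, 143, 58.2, 939 and 589 CPM in juveniles 1 to 5 and 58.4, 7.22, 45.6, 107 and 72.3 CPM in adults 1 to 5 (log2 fold change 2.92, adjusted p = 0.345), and its log2 fold change without juveniles 1 and 5 was 2.41. All 4 tested glial genes were above 0 (median 0.80), and 3 of 5 were above 0 (median 0.26) without these birds. The 12 glial and folliculostellate markers summed to 788, 273, 180.0, 1354 and 814 CPM in juveniles and 57.8 to 282 CPM in adults. IGLL1, an immunoglobulin light chain symbol, had 0, 32.2, 0, 0 and 2.59 CPM in juveniles 1 to 5 and 2133, 0, 96.6, 485 and 455 CPM in adults 1 to 5 (log2 fold change -5.93, adjusted p = 0.344). It was the only leukocyte gene of 24 to be tested, and adult 2, with few counts, had none. Below the filter the leukocyte genes did not share 1 direction. PTPRC had 49 counts over the juveniles and 1 over the adults, whereas JCHAIN had 3 and 52. IGLL1 therefore does not stand for the list. Markers of endothelial and mural cells summed to 321, 192, 217, 207 and 376 CPM in juveniles and 133, 36.1, 75.997, 99.8 and 81.1 CPM in adults, with no overlap.

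Ribosomal and mitochondrial genes had small differences of 1 sign in most members. Of 69 tested cytoplasmic ribosomal protein genes, 66 were above 0 (95.7%, against 44.6% of all genes), with a median log2 fold change of 0.52 and 0 called, and 66 and 68 were above 0 under RLE and upper-quartile scaling. Under 16L the median of these 69 genes was -0.04. The 71 genes of the list summed to 64869, 37162, 28825, 47144 and 63380 CPM in juveniles 1 to 5 and 23480 to 42752 CPM in adults. Juveniles 2 and 3 thus lay within the adult range. RPL10A, a protein of the large subunit, averaged 354 ± 135 CPM in juveniles and 151 ± 33.9 CPM in adults (log2 fold change 1.22, adjusted p = 0.493), and RPS21, of the small subunit, averaged 562 ± 141 CPM in juveniles and 259 ± 99.9 CPM in adults (log2 fold change 1.12, adjusted p = 0.518). Without juveniles 1 and 5, 44 of 70 were above 0 (62.9%, against 38.8% of all genes) and the median was 0.08. Of 66 tested nuclear genes of oxidative phosphorylation, 56 were above 0 (84.8%) with a median of 0.46, and 54 of 70 (77.1%) with a median of 0.36 without these birds. The median of the 66 genes under 16L was 0.20. COX7A2, a subunit of cytochrome c oxidase, had 463, 290.0, 455, 830.0 and 467 CPM in juveniles 1 to 5 and 159.8, 289, 215, 105 and 286 CPM in adults 1 to 5, with no overlap (log2 fold change 1.25, adjusted p = 0.518). NDUFB11, of complex I, averaged 47.1 ± 12.3 CPM in juveniles and 18.2 ± 6.53 CPM in adults (log2 fold change 1.35, adjusted p = 0.518), and ATP5G1, of the ATP synthase ring, averaged 745 ± 199 CPM in juveniles and 365 ± 109.5 CPM in adults (log2 fold change 1.03, adjusted p = 0.518).

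Leaving out single libraries changed which genes were called. Leaving out juvenile 1, 3, 4 or 5 gave 3, 5, 3 and 4 calls, with COL1A1, PBK and SMC2 in each, and leaving out adult 1 left PBK and SMC2 alone. Without juveniles 1 and 5 edgeR tested 7068 genes and called 11, of which COL1A1, SMC2, PBK and HBE1 were shared with the 8 and GH, LOC107055278, RASL10A, SPP1, FKBP15, RRM2 and OCM1 were not. FKBP15, the only one of the 11 that was lower, had 1, 1, 0, 0 and 18 counts in juveniles and 74, 18, 65, 48 and 124 in adults, and RRM2, a subunit of ribonucleotide reductase, had 1, 16, 4, 2 and 2 counts in juveniles and 1, 0, 1, 0 and 1 in adults. In that fit FKBP15 passed the filter through the adults and RRM2 through the juveniles, so the sign of each was fixed in advance. Both were chosen after their values were seen. RASL10A, a small GTPase chosen in the same way, had 0, 131, 6, 4 and 3 counts in juveniles and 5, 0, 5, 1 and 3 in adults. OCM1, a symbol of the calcium-binding oncomodulins chosen in the same way, had 0, 195, 4, 4 and 1 counts in juveniles and 2, 0, 1, 0 and 6 in adults. Most counts of both were in the female juvenile 2. Without juvenile 2, which left males only, edgeR called 49 genes that held all 8, with 15 higher and 34 lower. Bone and connective tissue genes were among the 15, with SPP1, BGLAP, PRRX1, COL6A1, LUM, COL5A1 and COL11A1. Among the 34 lower were PAX6, a transcription factor of eye, brain and pituitary (log2 fold change -7.72, adjusted p = 0.00413), and RBFOX1, a splicing factor of neurons (log2 fold change -7.39, adjusted p = 0.0242), also named after their values were seen. PAX6 had 1, 351, 0, 0 and 0 counts in juveniles and 399, 57, 399, 155 and 284 in adults, and RBFOX1 had 0, 50, 0, 0 and 1 counts in juveniles and 201, 28, 21, 292 and 447 in adults. Without juvenile 2 both genes were at or near 0 in juveniles and passed the filter through the adults. Their sign in that fit was thus fixed in advance. With juvenile 2 included their log2 fold changes were -1.98 and -3.95 (adjusted p = 0.711 and 0.373). Juvenile 2 was the deepest juvenile library, and the parts of depth and sex were not tested.

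The age difference was measured again in 4 juveniles and 5 adults under 16L, none of which were in the 8L groups. HINTW had 120 and 67 counts in 16L juveniles 3 and 4 and 0 in the other 16L birds. Age thus came together with sex for juveniles 3 and 4, and the part of sex was not tested. Of 6641 genes tested under 16L, 87 (1.31%) were called, 14 higher in juveniles (0.211%) and 73 lower (1.1%). Totals were 196965, 91030, 542633 and 234166 counts in 16L juveniles 1 to 4, below all 16L adults at 970137 to 4796665. Osteoblast markers summed to 4938, 2734, 213 and 143 CPM in these juveniles and 36.0 to 55.2 CPM in these adults. Age thus came together with depth under 16L, and the parts of depth and bone tissue were not tested. Of the 8 genes called under 8L, 6 could be tested under 16L, all 6 had the same sign and 5 were called there. The 5 were PBK at a log2 fold change of 5.50 (adjusted p = 0.0147), COL1A1 at 9.24 (adjusted p = 0.00901), HBE1 at 6.83 (adjusted p = 0.00901), COL1A2 at 6.17 (adjusted p = 0.0115) and COL3A1 at 2.99 (adjusted p = 0.00901). PBK, COL1A1, HBE1 and COL1A2, low in the 16L adults, passed the filter there through the juveniles, so their sign was fixed in advance. With no filter under 16L, 87.5% of the 8 genes kept their sign. In DESeq2, 83.7% of 104 genes called under 8L kept theirs. PLEKHG5 had -1.47 (adjusted p = 0.775) under 16L, where 4 juveniles ran from 0 to 51.1 CPM and 1 of them held every juvenile count. It passed the filter there mainly through the adults, so its sign was largely fixed in advance too. Of the 6 genes, COL3A1 alone was well above 0 in all birds of both ages. IL1RAPL2 was below the filter under 16L, at 14.5 ± 18.2 CPM in juveniles and 9.35 ± 9.34 CPM in adults (SD, n = 4 and 5), so that the juvenile mean was not the lower one there. SMC2, also below the filter, was at 54.2 ± 74.1 CPM in juveniles and 1.20 ± 1.15 CPM in adults. GH was called under 16L with a log2 fold change of 3.91 (adjusted p = 0.00901), and CGA likewise with -2.58 (adjusted p = 0.026). Of the 107 genes at a p under 0.01 under 8L, 100 were tested under 16L and 85 (85%) kept their sign, 45 of 55 higher and 40 of 45 lower, against 3057 of 5021 (60.9%) over all genes tested in both.

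The size of the age difference was then compared between 8L and 16L by the interaction term in 1 fit of all 19 birds. Depth and sex were not balanced among the groups of this fit, and their parts were not tested. edgeR called 0 of 7165 genes (0%), with 411 genes (5.74%) at an unadjusted p under 0.05 and a lowest adjusted p of 0.124, and DESeq2 called 7. PLEKHG5 had an interaction p of 0.00649 (adjusted p = 0.781) and IL1RAPL2 one of 9.4e-04 (adjusted p = 0.43), the smallest among the 8 genes. For GH the interaction p was 0.228 and for CLOCK 0.0596.

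**Figure D5:**
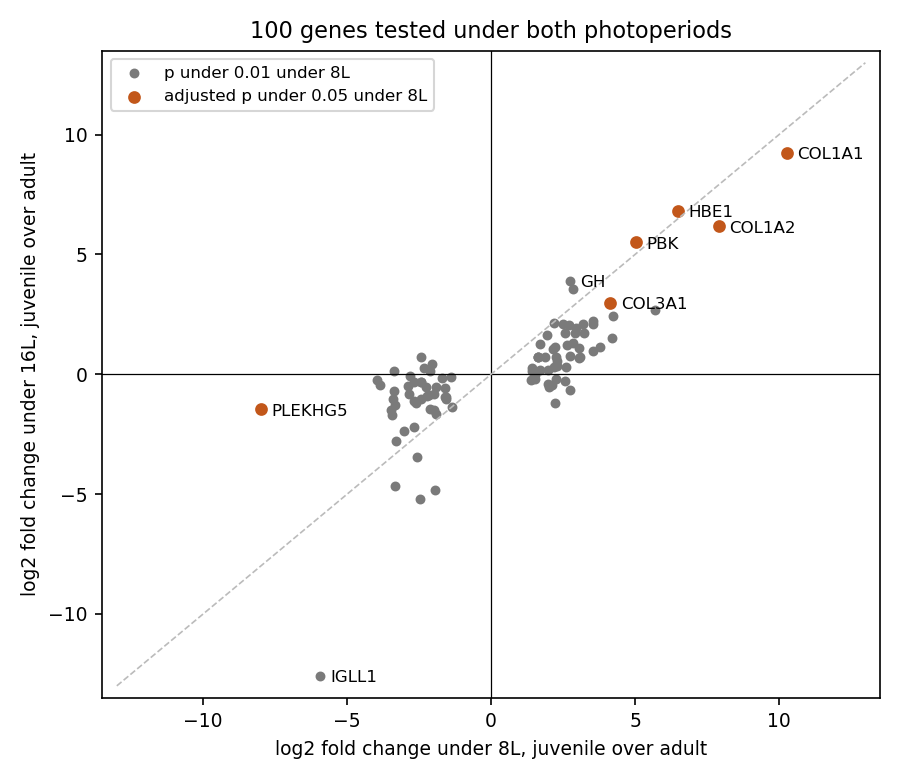
Log2 fold change of juveniles over adults under 8L (horizontal) and under 16L (vertical) for the 100 genes at a p under 0.01 under 8L that were tested under 16L; the dashed line marks equal values. The 85 genes to the lower left and upper right kept their sign, and COL1A1, HBE1, PBK, COL1A2 and COL3A1 lie in the upper right.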

How the data were processed

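RNA of 19 quail pituitaries, 1 library per bird, was read as PCR cDNA (SQK PCB 109 kit) on a Nanopore GridION. The authors used guppy, Porechop, Filtlong, minimap2 and Salmon, and deposited estimated counts per transcript, not normalized. The study's methods name an NCBI Coturnix japonica reference genome for the alignment; tool versions are not given in the sources used here. The estimated counts of 63260 transcripts were summed per gene symbol (19562 symbols, 5993 of them LOC symbols) and rounded to whole numbers. No transcript accession and 0 of the LOC symbols matched the quail annotation used here, whereas 11430 other symbols did, so no positions are given. That annotation belongs to a later version of the assembly. The cause of the mismatch was not tested. Which reference the deposited symbols came from, and whether it was a quail reference at all, were not tested either. Totals were 90599 to 1074139 counts in juveniles and 128509 to 1969096 in adults. Every count column was used.

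Groups came from the labels, and birds are replicates in the order of their labels. The comparison of 5 juvenile 8L birds with 5 adult 8L birds was fitted on these 10 libraries by the quasi-likelihood test of edgeR 4.0.16 in R 4.3.3, with TMM scaling (CPM throughout) and a low-count filter (minimum count 10, minimum total 15). P-values were adjusted by the Benjamini-Hochberg method over all genes tested, and a gene is called at an adjusted p under 0.05. The SE is the log2 fold change divided by the root of the F statistic. The 16L groups were fitted likewise, and the interaction on all 19 libraries. Fits were tested on simulated counts. Ratios of summed counts below the filter have exact 95% intervals, with 3 counts over a group as the floor.

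The comparison and the gene lists were chosen with earlier results of these data known. Genes named are GH, PRL, FSHB, LHB, CGA, NTS, OPN5, MEF2A, MEF2D and HAPLN1; up to 14 higher and 14 lower genes of smallest p at an adjusted p under 0.05 whose groups do not overlap; and, from each list, up to 4 members of smallest p, with all hormones. Other genes are said to have been chosen after their values were seen, or are given as counts of list members below the filter. Alternatives were DESeq2 1.42.0, limma 3.58.1 (voom), other scaling, filters and thresholds, a replicate block, the run listed for each bird, males only, deeper or thinned libraries, removal of gene groups, and leaving out libraries.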

Additional observations from a re-analysis of the deposited data

Results flagged for a closer look

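In the 90 groups of 5 birds looked at, 4 had 1 bird far from the other 4 by Dixon's criterion, where chance gives about 1 in 20 groups. IL1RAPL2 was at 4.28 CPM in juvenile 1, which is 1 count, and at 0 in the other 4 juveniles. POMC was at 107 CPM in juvenile 1, the lowest of the juveniles. SMC2 was at 2.83 CPM in adult 1, which is 5 counts, and at 0 in the other 4 adults. TSHB was at 0 CPM in adult 2, the shallowest adult library.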

How the results depend on the processing

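The count of 8 called genes (6 higher and 2 lower in juveniles) moved with the method. DESeq2 gave 107 (59 and 48), limma-voom 4 (3 and 1), the newer edgeR dispersion method 7 (6 and 1), RLE scaling 4 (4 and 0), upper-quartile scaling 8 (6 and 2), no filter 135 (108 and 27), and 10 counts in every library of a group 6 (5 and 1). All 4 groups in 1 fit gave 55 (37 and 18), males only 49 (15 and 34), libraries of 200000 counts or more 3 (2 and 1), and libraries thinned to the shallowest 1 (1 and 0). The run listed for each bird as a term gave 2 (2 and 0), no juveniles 1 and 5 gave 11 (10 and 1), removal of bone, connective tissue, blood and muscle genes 2 (2 and 0), removal of LOC symbols 6 (6 and 0), and an adjusted p under 0.2 gave 11 (6 and 5). Leaving out 1 bird gave 0 to 49 genes, 0 to 15 higher and 0 to 34 lower. At an unadjusted p under 0.01 the 107 genes (60 higher and 47 lower) became 324 (169 and 155) in DESeq2, 175 (41 and 134) in limma-voom, 683 (423 and 260) with no filter, 48 (33 and 15) under the stricter filter, 326 (181 and 145) in 1 fit of 4 groups, 262 (93 and 169) in males, 255 (150 and 105) in deep libraries, 21 (13 and 8) in thinned ones and 105 (35 and 70) without juveniles 1 and 5. Leaving out 1 bird gave 66 to 262 genes, 33 to 93 higher and 29 to 169 lower. For the interaction, DESeq2 called 7 genes.

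Replicate numbers did not pair the birds: same-numbered birds correlated at 0.11, -0.05, -0.12, -0.09 and 0.08, and 2 of 5 correlated best with their own number. With the replicate block, 1 gene was called (COL1A1; 1 higher and 0 lower), and 54 had a p under 0.01 (18 and 36).

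Of 1497 values of 61 genes, 1354 kept direction and call, 88 lost and 42 gained a call, and 13 changed sign. PRL became 0.057 (upper quartile), 0.0076 (stricter filter) and 0.32 (no juveniles 1 and 5), and ran from -0.63 to 0.27 with 1 bird left out. TSHB became 0.012 (DESeq2), 0.057 (upper quartile) and 0.52 (no juveniles 1 and 5), and ran from -0.65 to 0.25 with 1 bird left out. MEF2A became -0.084 in limma-voom, and RUNX2 -0.40 without juveniles 1 and 5. The causes were not tested. A gene at a few counts was not measurable in juvenile 4 (90599 counts) or adult 2 (128509 counts).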
